A study of Mus musculus with 64 samples.

Results

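The genes described here are the activating arm of the mammalian circadian clock: Arntl (ENSMUSG00000055116), Clock (ENSMUSG00000029238), Npas2 (ENSMUSG00000026077) and Rora (ENSMUSG00000032238). They were taken by gene name from the deposited tables, 4 of 35534 genes, and all 4 passed the filter on low counts in both tables. RNA sequencing was done on whole colon of wild-type Swiss Webster mice aged 8 to 12 weeks kept germ-free (GF) or free of specific pathogens (SPF) under 12 h of light and 12 h of dark. Mice received intraperitoneal vancomycin (2.5 mg in 100 µl of PBS) or PBS alone, 2 injections a day for 3 days and a last one on day 4. Colons were collected at 5, 11, 17 or 23 h of zeitgeber time (ZT). Each of the 16 groups of status, treatment and time held 4 libraries. All GF mice, PBS and vancomycin alike, were taken out of their isolators into other cages for the treatment. Whether each library came from its own animal is not stated, so p-values measure the spread between libraries.

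Arntl encodes BMAL1, which pairs with CLOCK or with its paralog NPAS2, and the pair binds E-box elements and switches on the Per, Cry, Nr1d and Dbp genes. PER and CRY proteins then block the pair. RORA, a nuclear receptor, activates Arntl through ROR response elements, and the REV-ERB receptors encoded by Nr1d1 and Nr1d2 repress Arntl through the same elements. RORA also has roles outside the clock, among them in the development of type 2 innate lymphoid cells.

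The proximal promoters of the heterodimer's genes are printed because the levels of Arntl and Npas2 moved together, and because the Arntl promoter is where RORs and REV-ERBs are known to act. Each window runs from 250 bases before to 50 bases after a RefSeq start (GRCm38.p6), 5′ to 3′ on the gene's strand. Both strands were searched for the ROR element core AGGTCA, its extension TAGGTCA, the related TGGGTCA, the E-box CACGTG, and AAAGTAGGTNA. The last was chosen after the Arntl window had been seen. TAGGTCA contains AGGTCA, and AAAGTAGGTNA can contain both. Capitals mark matches.
Arntl, the second of its windows, chr7:113207261-113207560, plus strand: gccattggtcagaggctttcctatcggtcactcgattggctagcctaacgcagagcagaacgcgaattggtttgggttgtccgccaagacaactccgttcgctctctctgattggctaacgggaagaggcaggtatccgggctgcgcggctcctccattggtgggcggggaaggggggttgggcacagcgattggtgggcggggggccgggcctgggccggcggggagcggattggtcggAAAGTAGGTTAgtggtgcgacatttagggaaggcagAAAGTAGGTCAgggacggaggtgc
Npas2, chr1:39194022-39194321, plus strand: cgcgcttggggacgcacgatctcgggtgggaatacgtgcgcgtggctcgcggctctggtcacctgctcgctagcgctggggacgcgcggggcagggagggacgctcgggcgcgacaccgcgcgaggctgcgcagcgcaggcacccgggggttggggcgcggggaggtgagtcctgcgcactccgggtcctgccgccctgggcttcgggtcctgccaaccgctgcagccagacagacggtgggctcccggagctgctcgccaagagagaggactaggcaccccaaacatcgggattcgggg
Clock, the third of its windows, chr5:76303453-76303752, minus strand: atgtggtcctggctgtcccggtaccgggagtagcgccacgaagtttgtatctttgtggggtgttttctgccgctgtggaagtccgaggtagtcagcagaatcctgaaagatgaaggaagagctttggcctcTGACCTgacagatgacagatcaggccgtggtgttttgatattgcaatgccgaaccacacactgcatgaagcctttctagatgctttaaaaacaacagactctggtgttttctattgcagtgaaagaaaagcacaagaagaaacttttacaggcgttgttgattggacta
The Arntl window held AAAGTAGGTNA 2 times, as AAAGTAGGTTA beginning at position -10 and as AAAGTAGGTCA beginning at position 26, counted from the start base as 0. Of 32851 windows of this length, 20 (0.0609%) held AAAGTAGGTNA, both Arntl windows among them, and the printed one is the 1 that held it 2 times or more. Since these letters were taken from that window, their presence there was fixed by the choice and is shown only to place them. AGGTCA was in 16.3% of all windows, TAGGTCA in 2.61%, TGGGTCA in 3.98% and CACGTG in 7.15%. The printed Clock window, shown for its match, held AGGTCA on the opposite strand, where it reads TGACCT, and the other 2 Clock windows held none of the letters searched. The Npas2 window and that of Rora (chr9:68653536-68653835, plus strand) held none of these letters, which says nothing of elements elsewhere in either gene.

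Libraries held 10044032 to 13615804 estimated counts in SPF and 10513966 to 15736087 in GF, and levels are CPM, counts scaled to the library's total after TMM, a correction for library composition. Epithelial and smooth muscle genes, the defining markers of whole colon, were high in every library: their mean log2 CPM over 9 genes each was at least 9.90 and 8.51 in SPF and at least 10.1 and 8.87 in GF. A colon position score, the mean log2 CPM of 6 distal minus that of 5 proximal Hox genes, was below 0 in 13 of the 32 GF libraries (6 PBS, 7 vancomycin) and in 0 of the 32 SPF libraries. Y-linked genes were low in 2 of 16 GF PBS and 9 of 16 GF vancomycin libraries, whose score (mean log2 CPM of 4 genes) was at most 1.24 against at least 5.17 in the others. The SPF and GF tables were scaled separately, so levels are set side by side but not tested between them.

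By its group means, Arntl was highest at ZT5 and lowest at ZT17 in all 4 conditions, and its transcript passed the edgeR time-of-day test in each of them. In SPF mice after PBS, Arntl was at 62.4, 74.3, 88.7 and 62.8 CPM at ZT5 and at 38.6, 22.8, 33.8 and 45.1 CPM at ZT11. It was at 17.6, 27.4, 18.98 and 14.05 CPM at ZT17 and at 26.5, 31.3, 33.8 and 27.4 CPM at ZT23. The 4 ZT5 libraries lay above all others, while the ZT11 libraries overlapped those of both dark-phase times and the highest ZT17 library reached into the ZT23 range. After vancomycin, the SPF values were 80.7, 48.5, 61.2 and 68.1 CPM at ZT5 and 60.7, 57.5, 59.3 and 43.3 CPM at ZT11. They were 14.4, 14.5, 18.7 and 15.1 CPM at ZT17 and 30.1, 11.4, 26.5 and 21.01 CPM at ZT23. Here ZT5 and ZT11 overlapped and both lay above ZT17 and ZT23. GF mice after PBS had 69.7, 67.7, 82.6 and 65.5 CPM at ZT5 and 61.2, 67.01, 57.6 and 58.4 CPM at ZT11. Their later values were 16.2, 14.4, 17.7 and 13.2 CPM at ZT17 and 37.3, 47.8, 41.1 and 30.3 CPM at ZT23. ZT17 was again the trough, with no overlap with any other time. GF mice after vancomycin had 88.4, 68.4, 43.7 and 65.5 CPM at ZT5 and 43.2, 48.1, 46.7 and 48.4 CPM at ZT11. At ZT17 they had 17.3, 6.100, 20.4 and 34.5 CPM and at ZT23 27.6, 22.2, 45.3 and 37.5 CPM. The ZT17 libraries of this condition spread over the widest range of any Arntl group on the log2 scale (SD 1.04), and the highest of them overlapped ZT23.

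**Figure D1:**
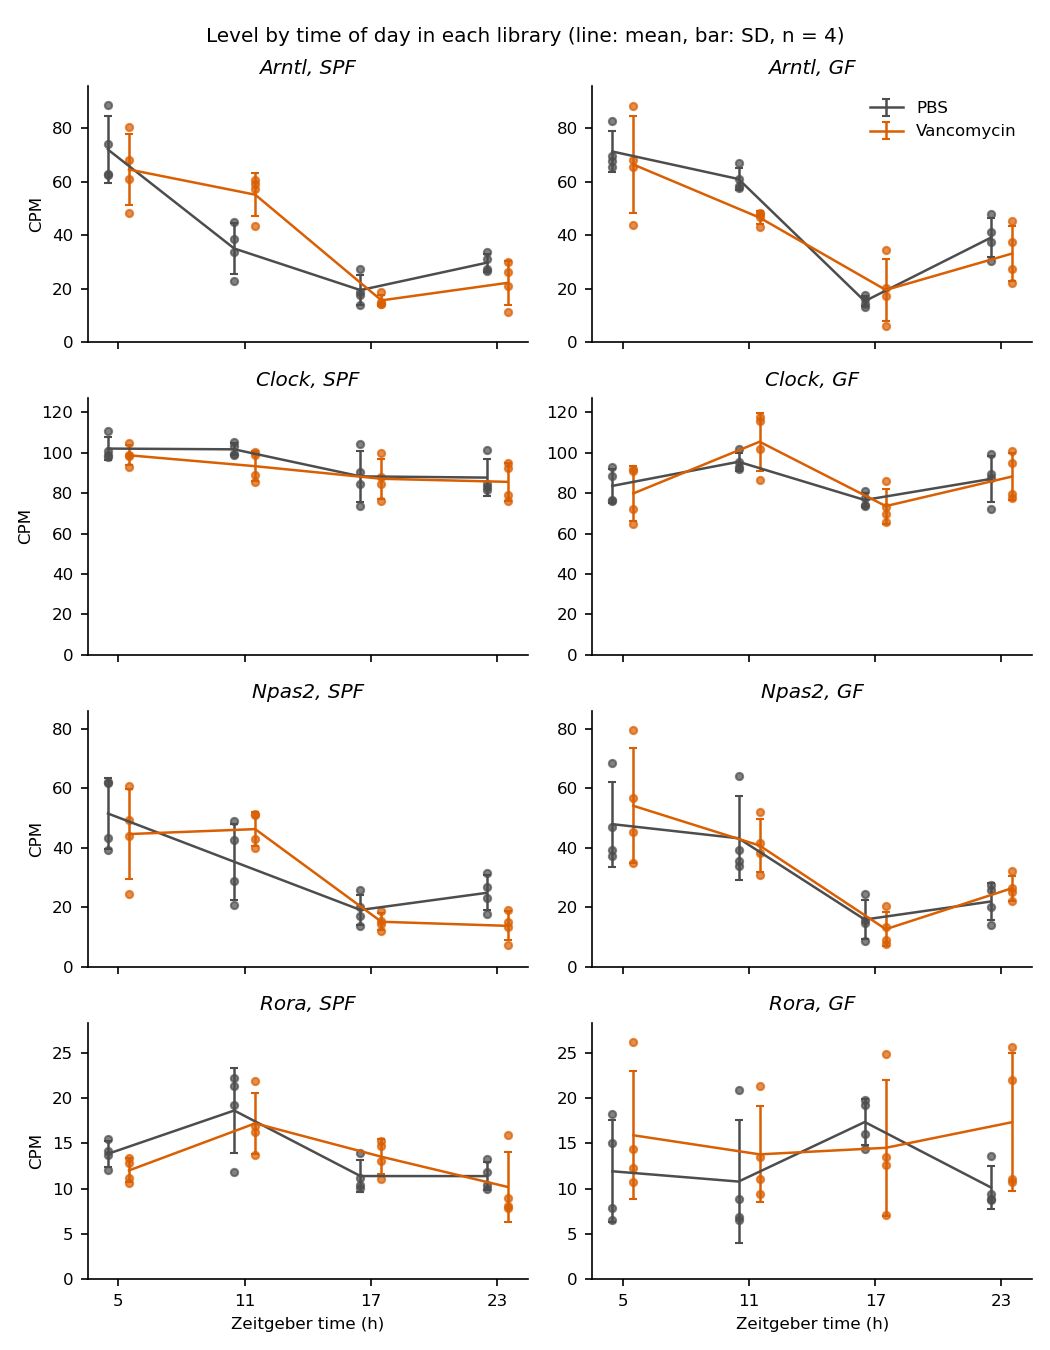
CPM (vertical axis, from 0) of each gene against zeitgeber time in h, in SPF (left) and GF (right) colon, for PBS (grey) and vancomycin (orange). Points are libraries, lines join the means of 4 libraries and bars are SDs; Arntl and Npas2 fall to their lowest range at ZT17 or ZT23 in every panel, while Clock stays within 64.6 to 118 CPM.

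The log2 difference of Arntl between ZT5 and ZT17 was 1.88 ± 0.23 (SE; adjusted p = 8.87e-05 for the test of all 4 times) in SPF after PBS and 2.04 ± 0.23 (7.49e-06) in SPF after vancomycin. It was 2.21 ± 0.29 (0.000882) in GF after PBS and 1.76 ± 0.29 (0.0213) in GF after vancomycin. These are ratios of 3.69, 4.12, 4.64 and 3.397. Genes that passed the same test made up 8.9% of all genes tested in SPF after PBS, 8.2% in SPF after vancomycin and 0.142% in each GF treatment. Arntl ranked 15th, 5th, 10th and 17th by p in these 4 tests among 16938 (SPF) and 16951 (GF) genes. In GF after vancomycin the call was lost without any 1 of 4 libraries: ZT17 replicate 1 (1.70, adjusted p = 0.0825), ZT17 replicate 3 (1.78, 0.0622), ZT5 replicate 1 (1.60, 0.0738) and ZT5 replicate 2 (1.76, 0.0518). A fit with only GF libraries of position score above 0 was chosen after seeing the data. It left 1 library each in GF PBS ZT5, GF vancomycin ZT5 and GF vancomycin ZT23. The Arntl differences were then 2.01 after PBS and 1.69 after vancomycin. With all GF libraries and the position score as a covariate, Arntl passed in both GF treatments.

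No step of Arntl from ZT5 to ZT11 or from ZT17 to ZT23 passed in edgeR after adjustment over all genes. From ZT5 to ZT11 the log2 difference was -1.04 ± 0.23 (SE; unadjusted 95% interval -1.51 to -0.57; adjusted p = 0.0760; 0.059% of all genes called) in SPF after PBS, with no overlap of the libraries. That step was -0.23 ± 0.23 (-0.70 to 0.24; 0.654; 3.37%) in SPF after vancomycin, -0.22 ± 0.29 (-0.81 to 0.36; 0.924; 0.0059%) in GF after PBS and -0.51 ± 0.29 (-1.10 to 0.08; 0.551; 0%) in GF after vancomycin. From ZT17 to ZT23 the Arntl difference was 0.61 (0.13 to 1.09; adjusted p = 0.229; 0.72% called) and 0.50 (0.02 to 0.99; 0.400; 0.844%) in SPF after PBS and vancomycin. In GF it was 1.35 (0.75 to 1.95; 0.0737; 0.0472%) and 0.76 (0.17 to 1.36; 0.610; 0.0354%).

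Npas2, the paralog of Clock, was likewise higher at ZT5 and ZT11 than at ZT17 and ZT23 by its group means in all 4 conditions, and passed the time-of-day test in each. In SPF after PBS, Npas2 was at 43.2, 62.02, 61.7 and 39.3 CPM at ZT5 and 42.6, 20.7, 29.002 and 48.9 CPM at ZT11. It was at 20.2, 25.8, 16.96 and 13.6 CPM at ZT17 and 23.1, 31.7, 26.8 and 17.8 CPM at ZT23. The ZT5 libraries overlapped those of ZT11 and lay above those of ZT17 and ZT23. With vancomycin, SPF libraries had 60.9, 24.4, 49.4 and 43.9 CPM at ZT5 and 51.3, 43.1, 50.99 and 39.8 CPM at ZT11. They had 15.6, 11.9, 18.7 and 14.4 CPM at ZT17 and 13.5, 7.39, 15.04 and 19.1 CPM at ZT23. This is the only condition in which the lowest mean of Npas2 fell at ZT23, and the ZT17 and ZT23 libraries overlapped. In GF after PBS, the Npas2 values were 39.4, 37.2, 68.4 and 46.9 CPM at ZT5 and 35.4, 64.2, 33.98 and 39.3 CPM at ZT11. They were 14.6, 15.8, 8.57 and 24.5 CPM at ZT17 and 20.2, 25.9, 27.7 and 14.1 CPM at ZT23. Both light-phase times lay above both dark-phase times with no overlap. In GF after vancomycin, Npas2 was at 79.8, 45.3, 56.7 and 34.8 CPM at ZT5 and 52.1, 38.3, 41.8 and 31.02 CPM at ZT11. It was at 9.02, 7.68, 13.6 and 20.4 CPM at ZT17 and 26.5, 25.1, 32.1 and 22.02 CPM at ZT23. ZT17 was below every other time without overlap.

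The log2 difference of Npas2 between ZT5 and ZT17 was 1.43 ± 0.28 (SE; adjusted p = 0.00883) in SPF after PBS, 1.59 ± 0.32 (0.0399) in GF after PBS and 2.10 ± 0.32 (0.00909) in GF after vancomycin. In SPF after vancomycin the widest Npas2 difference, ZT11 over ZT23, was 1.75 ± 0.28 (0.000199). By p, Npas2 ranked 276th and 18th in SPF after PBS and vancomycin, and 24th and 12th in GF. The Npas2 call in GF after PBS was lost without any 1 of 17 of the 32 GF libraries, with the difference between 1.38 and 1.88 over all 32 omissions. The call in GF after vancomycin was lost without ZT17 replicate 1 (1.95, adjusted p = 0.0533). With only libraries of position score above 0, some groups held 1 library, and the Npas2 differences were 1.73 after PBS and 1.40 after vancomycin. With all GF libraries and the position score as a covariate, Npas2 passed in both GF treatments.

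A 24 h component drawn through the 4 time means gives an amplitude (log2, from mean to peak) and a peak time; with 4 times it is a summary, not a test of rhythm. The Arntl amplitude was 0.95 ± 0.12 and 1.21 ± 0.12 in SPF after PBS and vancomycin, and 1.15 ± 0.14 and 0.92 ± 0.14 in GF. The Npas2 amplitude was 0.76 ± 0.14, 1.17 ± 0.14, 0.93 ± 0.16 and 1.09 ± 0.16 in the same order. The median amplitude of all genes was 0.21, 0.20, 0.18 and 0.18. In SPF the Arntl peak was at ZT 5.48 ± 0.47 after PBS and ZT 7.18 ± 0.37 after vancomycin, 1.70 ± 0.59 h later. The Npas2 peak was at ZT 6.30 ± 0.71 and ZT 8.22 ± 0.46, 1.92 ± 0.85 h later. In GF the shift was -0.04 ± 0.77 h for Arntl (ZT 6.08 and 6.04) and -0.99 ± 0.84 h for Npas2 (ZT 7.10 and 6.11). The test of treatment by time, which covers such shifts, was not passed by either gene. Its adjusted p was 0.356 for Arntl and 0.469 for Npas2 in SPF, and 0.790 and 0.872 in GF. In SPF both had an unadjusted p under 0.05 in edgeR, as did 1659 of 16938 genes.

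**Figure D2:**
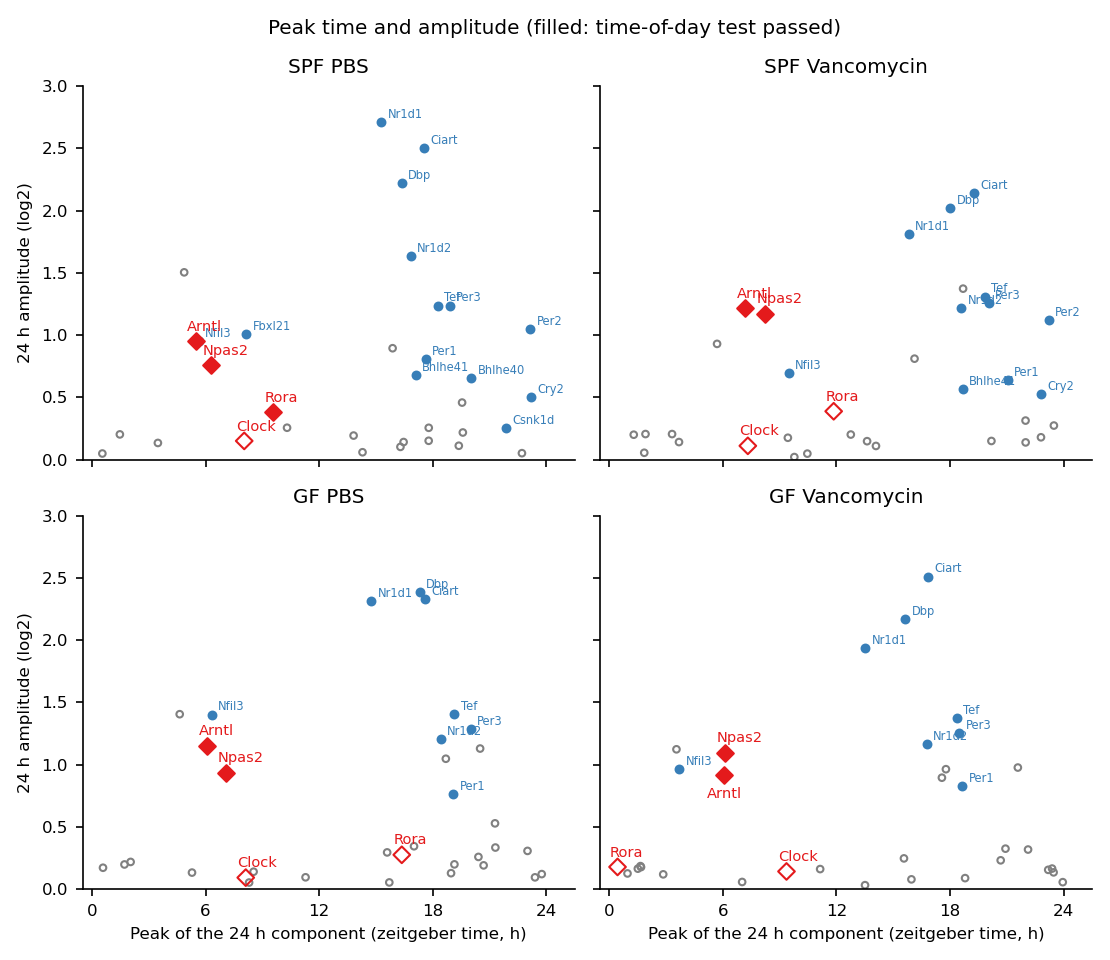
Amplitude (log2) of the 24 h component against its peak (zeitgeber time, h) in the 4 conditions, for the 4 activator genes (red diamonds) and the repressors, PAR bZIP factors, Nfil3, kinases, ligases and partners (circles), filled where the time-of-day test was passed. Arntl and Npas2 lie between ZT 5.48 and 8.22 in every panel, while Nr1d1 lies between ZT 13.5 and 15.8.

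Clock itself, the usual partner of BMAL1, passed the edgeR time-of-day test in none of the 4 conditions. Its 16 group means ran from 73.6 ± 8.69 CPM (SD, n = 4; GF vancomycin ZT17) to 106 ± 14.5 CPM (GF vancomycin ZT11), and its single libraries from 64.6 to 118 CPM. In SPF after PBS, Clock was at 101, 99.1, 111 and 97.9 CPM at ZT5 and 81.5, 83.3, 102 and 84.4 CPM at ZT23, and replicate 3 of ZT23 reached into the ZT5 range. The widest log2 difference was 0.22 ± 0.10 in SPF after PBS (ZT5 over ZT23; adjusted p = 0.185) and 0.21 ± 0.10 in SPF after vancomycin (adjusted p = 0.390). In GF it was 0.32 ± 0.12 after PBS (ZT11 over ZT17; adjusted p = 0.416) and 0.52 ± 0.12 after vancomycin (adjusted p = 0.242). In that last condition Clock was at 86.5, 118, 116 and 102 CPM at ZT11 and 69.6, 65.8, 73.1 and 85.8 CPM at ZT17, with no overlap, and DESeq2 called it (0.51, adjusted p = 0.0488). The share of all genes that DESeq2 called there is not given. The Clock amplitude, 0.15, 0.11, 0.09 and 0.14 in SPF PBS, SPF vancomycin, GF PBS and GF vancomycin, was below the median of all genes each time.

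Rora, the receptor that activates Arntl, passed the edgeR time-of-day test in SPF mice after PBS and in no other condition, while DESeq2 also called it in SPF after vancomycin and limma called it in neither. After PBS in SPF it was highest at ZT11: 14.1, 15.4, 12.03 and 13.7 CPM at ZT5 and 19.2, 11.8, 22.2 and 21.3 CPM at ZT11. Later values were 10.1, 10.4, 13.9 and 11.2 CPM at ZT17 and 13.3, 11.9, 9.91 and 10.4 CPM at ZT23. Of the 4 ZT11 libraries, 3 lay above all others of this condition and replicate 2 lay among them. After vancomycin in SPF, Rora was at 11.1, 13.4, 10.6 and 12.8 CPM at ZT5 and 21.8, 16.3, 13.8 and 16.9 CPM at ZT11. It was at 13.01, 15.2, 11.04 and 14.7 CPM at ZT17 and 8.91, 15.9, 7.86 and 8.06 CPM at ZT23. Replicate 2 of ZT23 stood apart from the other ZT23 libraries and lay among those of ZT11. In GF after PBS, Rora was at 7.87, 15.03, 6.51 and 18.2 CPM at ZT5 and 8.79, 6.57, 20.9 and 6.83 CPM at ZT11. It was at 19.7, 14.4, 16.02 and 19.2 CPM at ZT17 and 13.6, 8.82, 8.68 and 9.36 CPM at ZT23. Replicate 3 of ZT11 was the highest library of this condition although the other ZT11 libraries were among the lowest. In GF after vancomycin, Rora ranged from 10.7 to 26.2 CPM at ZT5 (mean 15.9 ± 7.05, SD), from 9.36 to 21.3 at ZT11 (13.8 ± 5.297), from 7.05 to 24.9 at ZT17 (14.5 ± 7.48) and from 10.7 to 25.6 at ZT23 (17.3 ± 7.595). All 4 times overlapped there.

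The log2 difference of Rora between ZT11 and ZT23 was 0.71 ± 0.20 (SE; adjusted p = 0.0442) in SPF after PBS and 0.76 ± 0.20 (0.0676) in SPF after vancomycin. Without ZT23 replicate 2 the latter was 1.05 (adjusted p = 0.00650). Without SPF PBS ZT11 replicate 2 it was 0.75 (0.0383). The call after PBS was lost without any 1 of 17 of the 32 SPF libraries, with the difference between 0.62 and 0.89. DESeq2 called both (0.76, adjusted p = 0.0289 after vancomycin) and limma neither (0.68, adjusted p = 0.0612 after PBS). The shares of all genes called by these 2 tools are not given. The call after PBS was also lost with no filter on low counts (0.71, adjusted p = 0.0672) and with the replicate block (0.73, 0.0546). In GF the edgeR adjusted p was 0.538 after PBS and 0.953 after vancomycin. For Rora in SPF, ZT5, ZT17 and ZT23 were not separated from each other: after PBS the unadjusted 95% interval of ZT17 minus ZT5 was -0.70 to 0.13 and that of ZT23 minus ZT17 was -0.42 to 0.42.

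Rora moved with a score of smooth muscle genes, and the other 3 genes did not pass that test. The smooth muscle score (mean log2 CPM of 9 contractile genes such as Acta2, Myh11 and Des, all 9 detected, the lowest at a mean of 130 CPM in SPF and 148 CPM in GF) ran in SPF PBS libraries from 10.03 to 10.3 at ZT5, 9.77 to 10.9 at ZT11, 9.80 to 10.02 at ZT17 and 8.72 to 9.44 at ZT23. ZT11 replicate 2, the low Rora library, had the lowest ZT11 score, 9.77. It also stood apart from the other 3 in its B cell and follicle score (5.92 against 1.89 to 2.72) and its T and NK score (2.28 against -0.434 to -0.00454), and it had the lowest epithelial (9.94 against 10.3 to 10.6) and the highest position score (2.87 against 0.907 to 2.55). The part of each score in its Rora level was not tested. Within groups, Rora rose by 0.48 ± 0.14 log2 per unit of score in SPF (adjusted p = 0.0389; 9.02% of all genes passed) and by 0.76 ± 0.08 in GF (3.10e-08; 35.2% passed). With the score in the fit, the SPF PBS difference of Rora between ZT11 and ZT23 was 0.05 (adjusted p = 0.358), and with the colon position score it was 0.39 (0.338). The SPF PBS smooth muscle scores at ZT23 (8.72 to 9.44) lay below those of every other time. Score and time therefore cannot be told apart in that fit, and the part of either in the Rora difference was not tested. In GF, Rora also fell by 0.12 ± 0.04 log2 per unit of the B cell and follicle score (8 genes; adjusted p = 0.0248; 30.4% passed). No other slope of the 4 genes passed on the 5 scores tested: 1.26% (SPF) and 17% (GF) of all genes passed for position, 16.5% and 24.5% for T and NK cells, 13.9% for B cells and follicles in SPF, and 0% and 0.0472% for Y-linked genes. For Arntl, Clock and Npas2 the smooth muscle slopes were 0.13 ± 0.20, -0.04 ± 0.08 and 0.03 ± 0.24 in SPF and -0.19 ± 0.12, 0.01 ± 0.05 and -0.21 ± 0.13 in GF. Other cell type scores were not tested in the fit. In SPF PBS the fibroblast mean was, like that of smooth muscle, highest at ZT11 (7.34) and lowest at ZT23 (6.75). So was that of interstitial cells, neurons and glia (4.49 and 3.81). The untested means of epithelium, innate lymphoid cells, macrophages and dendritic cells, and adipose were highest at ZT23. In whole colon, fewer cells of a type and less RNA per cell cannot be told apart.

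**Figure D3:**
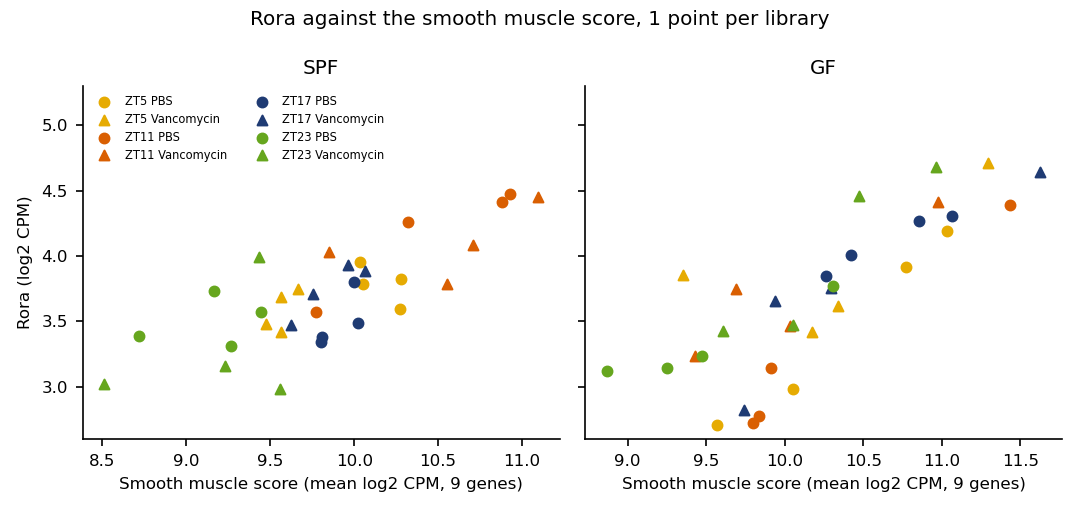
Rora (log2 CPM) against the smooth muscle score (mean log2 CPM of 9 genes) in SPF (left) and GF (right), 1 point per library, colour for zeitgeber time, circles for PBS and triangles for vancomycin. Libraries with a higher score have more Rora in both panels, and the SPF ZT23 libraries hold the low scores.

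Vancomycin against PBS gave no call for any of the 4 genes, in either status, over all times or at any time. Over the 4 times, the log2 difference in SPF was -0.06 ± 0.12 for Arntl, -0.06 ± 0.05 for Clock, -0.25 ± 0.14 for Npas2 and -0.06 ± 0.10 for Rora, with adjusted p from 0.386 to 0.855 (0.809% of all genes were called). In GF it was -0.10 ± 0.14, 0.01 ± 0.06, 0.01 ± 0.16 and 0.32 ± 0.21 in that order, with an adjusted p of 1.00 for each (0% called). The unadjusted 95% interval of Clock, the narrowest, was -0.16 to 0.04 in SPF and -0.12 to 0.14 in GF, and that of Rora in GF, the widest, was -0.10 to 0.74. Low Y-linked scores were more frequent in GF vancomycin than in GF PBS libraries, and with the Y-linked or the position score in the fit 0 of the 4 genes were called as well. Since 0% of all genes were called in GF without a score, these fits cannot show whether that imbalance hides a difference. DESeq2 and limma also called 0 of the 4 genes in these comparisons. For the difference over all times alone, 0 of 4 had an unadjusted p under 0.05 in edgeR in either status. Over all times, 2737 of 16938 genes had one in SPF and 672 of 16951 in GF.

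At single times, 2 SPF differences had an unadjusted p under 0.05 in edgeR. Of all 16938 genes, 1670 had one at ZT11 and 1243 at ZT23. Arntl at ZT11 was 35.1 ± 9.41 CPM (SD, n = 4) after PBS and 55.2 ± 8.02 CPM after vancomycin, a log2 difference of 0.65 ± 0.23 (SE; unadjusted 95% interval 0.18 to 1.13; adjusted p = 0.337). The highest PBS library, 45.1 CPM, lay above the lowest vancomycin library, 43.3 CPM. Npas2 at ZT23 was 24.9 ± 5.86 and 13.8 ± 4.86 CPM, a log2 difference of -0.85 ± 0.29 (-1.44 to -0.27; adjusted p = 0.427), again with overlapping libraries. In GF at ZT11 Arntl was 61.1 ± 4.25 and 46.6 ± 2.38 CPM, a log2 difference of -0.39 ± 0.29 (-0.98 to 0.20; adjusted p = 0.996). These libraries did not overlap, but the share of all genes without overlap there was not counted. Of all genes, 0.0827% were called in SPF at ZT5, 0% at ZT11, 0.319% at ZT17 and 0% at ZT23, 0.36% passed the SPF test of treatment by time, and 0% were called in any of these GF tests. DESeq2 and limma called 0 of the 4 genes in each of these tests.

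**Figure D4:**
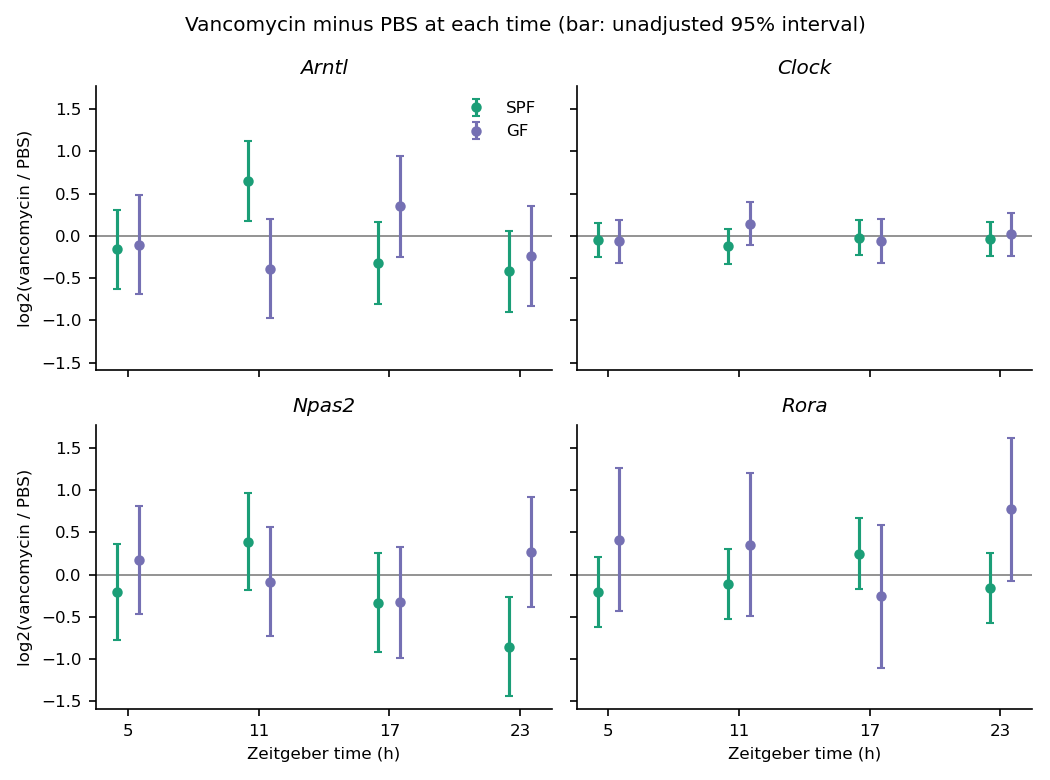
Log2 difference between vancomycin and PBS (vertical axis) at each zeitgeber time (h) for the 4 genes in SPF (green) and GF (purple), with unadjusted 95% intervals from the edgeR fit. The intervals include 0 except those of Arntl at ZT11 and Npas2 at ZT23 in SPF.

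The difference between SPF and GF was tested on differences taken within each table, and no test called any of the 4 genes. For the time profile after PBS the adjusted p was 0.238 for Arntl, 0.613 for Clock, 0.788 for Npas2 and 0.298 for Rora, and 0.12% of all genes were called. After vancomycin it was 0.437, 0.166, 0.246 and 0.424, with 0.151% called. Unadjusted, edgeR gave a p under 0.05 to Arntl and Rora after PBS and to Clock and Npas2 after vancomycin. It gave one to 2641 of 16604 genes after PBS and to 2763 after vancomycin. DESeq2 and limma also called none of the 4. In single values, Arntl at ZT11 after PBS was at 22.8 to 45.1 CPM in SPF and at 57.6 to 67.01 CPM in GF. The vancomycin difference of Arntl at ZT11 was 1.05 ± 0.37 log2 greater in SPF than in GF (unadjusted 95% interval 0.31 to 1.79; adjusted p = 0.417; 0.00602% called). That of Npas2 at ZT23 was -1.13 ± 0.43 (-2.003 to -0.26; adjusted p = 0.300; 0% called). Of all genes, 0% were called for the vancomycin difference over all times and at ZT5, 0.0602% at ZT17 and 0.0723% for treatment by time, where Arntl had an adjusted p of 0.427 and the other 3 genes between 0.575 and 0.838. Limited to GF libraries of position score above 0, the Clock difference after vancomycin (ZT5 over ZT11, SPF minus GF) was 0.73. That of Rora after PBS (ZT11 over ZT17, SPF minus GF) was 1.97. After vancomycin GF ZT5 and ZT23 then held 1 library each, and after PBS GF ZT5 held 1 library. Those lone libraries were assumed to vary like the other groups. Without GF vancomycin ZT11 replicate 1, Clock was called after vancomycin (ZT5 over ZT11, SPF minus GF, 0.58; adjusted p = 0.0398). The share of all genes called without that library is not given.

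Of the 10 repressor genes, 9 passed the time-of-day test in SPF after PBS (8.9% of all genes did), 8 in SPF after vancomycin (8.2%) and 5 in each GF treatment (0.142%). Those that passed peaked between ZT 13.5 and 23.2, after Arntl and Npas2. Cry1, the repressor that passed in no condition, had its peak beside Arntl, at ZT 4.87 and 5.69 in SPF after PBS and vancomycin and at ZT 4.63 and 3.54 in GF. Its amplitude was 1.503, 0.93, 1.40 and 1.12 log2 in that order (adjusted p = 0.0733, 0.349, 0.167 and 0.447 in edgeR, with an unadjusted p under 0.05 in all but SPF vancomycin). Nr1d1 (REV-ERBα) peaked between ZT 13.5 and 15.8 and Ciart, a repressor of the BMAL1 pair, between ZT 16.8 and 19.3. Dbp and Tef, PAR bZIP factors, and Nfil3, which opposes them, passed in all 4 conditions and Hlf in none. Dbp peaked between ZT 15.6 and 18.01, and Nfil3 between ZT 3.69 and 9.49, beside Arntl. Rorb, a relative of Rora, and Arntl2 (BMAL2), the paralog of Arntl, passed in none of the 4 conditions. Of 16 kinases, ligases and partner genes, Csnk1d and Fbxl21 passed in SPF after PBS, near the share of all genes. By edgeR, 0 passed in the other 3 conditions. There 5, 1 and 1 had an unadjusted p under 0.05 in SPF vancomycin, GF PBS and GF vancomycin. Of all genes, 4081 of 16938, 2491 of 16951 and 1612 of 16951 had one in these conditions. In SPF PBS, 4348 of 16938 did.

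At ZT11, where Arntl differed most between treatments in SPF, Dbp, a direct target of the pair, was at a mean of 62.0 CPM after PBS and 18.2 after vancomycin in SPF, and at 14.1 and 38.1 in GF. The vancomycin difference of Dbp was -1.77 ± 0.39 log2 in SPF (adjusted p = 0.103) and 1.43 ± 0.41 in GF (0.974). The difference between them, -3.19 ± 0.58, passed (adjusted p = 0.0287), as did 0.00602% of all genes. Nr1d2 (REV-ERBβ) passed the SPF test of treatment by time (adjusted p = 0.00790), as did 0.36% of all genes. Its SPF vancomycin difference was 0.77 log2 at ZT5 and -0.95 at ZT11. The ZT11 means were 81.1 CPM after PBS and 41.9 after vancomycin.

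Over the 16 group means, Arntl and Npas2 were each other's nearest gene among 11655 genes with a mean of at least 5 CPM (Pearson r = 0.95). The next nearest to Arntl were Dennd2b (0.94) and Bok (0.93), a BCL2 family member, and the farthest were Ciart (-0.96) and Tef (-0.95). Npas2 was next nearest to Spon2 (0.93) and Cdcp1 (0.91) and farthest from Tef (-0.96) and Per3 (-0.95). Clock had lower values, with Irs1 (0.87), an insulin receptor substrate, Zmym1 (0.86) and Azi2 (0.85) nearest and Tsku (-0.87) and Cdk11b (-0.81) farthest. Nearest to Rora were Rhoq (0.96), a small GTPase, Antxr1 (0.93) and Gpx8 (0.93), and farthest Tmprss2 (-0.92), an epithelial protease, and Cbr2 (-0.90). These values are descriptions over 16 groups whose genes share libraries and depth, from tables scaled separately.

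Within groups, libraries with more Arntl had more Npas2 in SPF. The deviations of 32 SPF libraries from their group means correlated with Pearson r = 0.82 (permutation p = 1e-05, the smallest that 100000 permutations can give; adjusted p = 0.00012 over 12 relations) and Spearman rho = 0.80 (adjusted p = 0.00012). Without the 2 libraries farthest in Arntl, r was 0.75, and with the position score removed it was 0.82. In GF the same pair had r = 0.45 (permutation p = 0.0464, adjusted p = 0.0831; rho = 0.31), 0.20 without the 2 farthest libraries and 0.66 with position removed. Clock went with Npas2 in SPF (r = 0.50, permutation adjusted p = 0.0194; rho = 0.54, adjusted p = 0.0125; 0.53 without the 2 farthest libraries and 0.50 with position removed). Clock went with Arntl in GF (r = 0.63, permutation adjusted p = 0.000960; rho = 0.70, adjusted p = 0.00246; 0.69 without the 2 farthest and 0.54 with position removed). By Pearson r, the other 9 relations, every one with Rora among them, did not pass. By Spearman rho, Arntl with Clock in SPF also passed (0.48, adjusted p = 0.0389, against r = 0.41, adjusted p = 0.0831). Whether these pairs differ between SPF and GF was not tested.

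**Figure D5:**
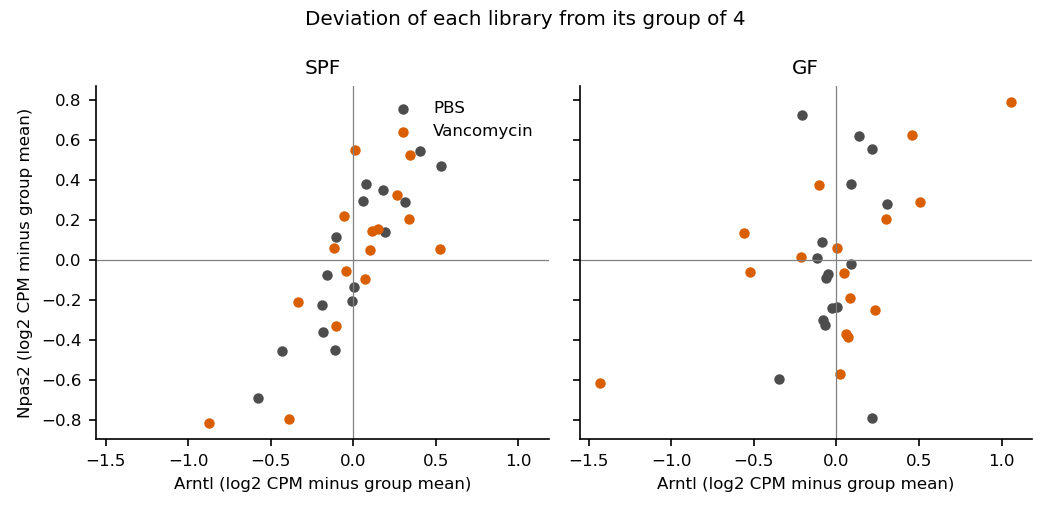
Deviation of Npas2 (vertical axis) against that of Arntl (horizontal axis) from the mean of their group of 4, in log2 CPM, for 32 SPF (left) and 32 GF (right) libraries, grey for PBS and orange for vancomycin. The SPF points follow a rising line (r = 0.82), and the GF points have r = 0.45.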

How the data were processed

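Per the submitters' processing notes, reads were trimmed with Trim Galore 0.6.2 and cutadapt 3.5 and quantified with Salmon on GRCm39; the Salmon version, the annotation and the way transcripts were summed to genes were not given in the sources used here. The deposited values are estimated counts per gene, 1 table for SPF and 1 for GF, with no scaling for depth visible although the tables are called normalized, so an adjustment of single genes by the authors is possible. Estimated counts were rounded to whole numbers, genes with at least 10 in at least 4 libraries were kept, and edgeR 4.0.16 (R 4.3.3; TMM, glmQLFit, glmQLFTest) was fitted once per table with 8 group means, and once over both tables with 16 means for differences of within-table differences. The per-time SPF against GF tests and the correlations were added after seeing the data. P-values were adjusted (Benjamini-Hochberg, threshold 0.05, two-sided) over all genes tested; a gene below the threshold is said to pass or to be called. Standard errors and 95% intervals come from the fit. Deviations were taken on log2 CPM (prior count 0.5), with permutation tests in scipy 1.17.1. Alternatives were DESeq2 1.42.0, limma 3.58.1, other scalings and filters, a replicate block, 5 score covariates and each library left out. The fits were tested on simulated data. The named genes are the 4 activators, fixed lists of clock genes, and the 3 nearest and 2 farthest genes by correlation over group means. A gene of these lists is not reported here. The genes and lists were chosen with earlier results of these data known. Promoters are RefSeq GRCm38.p6; as the builds differ, no other coordinates were used.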

Additional observations from a re-analysis of the deposited data

Results flagged for a closer look

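In 5 of the 64 groups of 4 libraries, 1 library stood apart from the other 3 by Dixon's test of the gap over the range at the 95% level, which chance does in about 1 in 20 groups. Arntl in SPF vancomycin at ZT17 was 18.7 CPM in replicate 3 and 14.4 to 15.1 in the others. Clock in SPF PBS at ZT23 was 102 CPM in replicate 3 and 81.5 to 84.4 in the others. Rora stood apart in 3 groups. It was 15.9 CPM in replicate 2 of SPF vancomycin at ZT23 against 7.86 to 8.91, 20.9 CPM in replicate 3 of GF PBS at ZT11 against 6.57 to 8.79, and 13.6 CPM in replicate 1 of GF PBS at ZT23 against 8.68 to 9.36. The last 2 libraries had the highest smooth muscle score of their groups, 11.4 and 10.3 (mean log2 CPM). The first of them, in GF PBS at ZT11, was also the only one of its group with a position score below 0 (-0.67 against 2.45 to 3.67) and had the lowest B cell and follicle (-0.79 against 4.56 to 5.47) and T and NK scores (-0.65 against 1.17 to 2.72). The other, in GF PBS at ZT23, had the lowest B cell and follicle (4.67 against 4.86 to 7.14) and T and NK scores (1.80 against 2.17 to 4.90) of its group. Replicate 2 of SPF vancomycin at ZT23 had a smooth muscle score of 9.43, which was not the highest of its group (9.56), and the lowest position score (2.48 against 2.78 to 3.14). That library also had the lowest Arntl (11.4 CPM against 21.01 to 30.1) and Npas2 (7.39 against 13.5 to 19.1) of its group. Its Nr1d1 and Dbp were the highest, 0.48 and 0.64 log2 above the group mean. It is part of the SPF vancomycin mean of Npas2 at ZT23. The part of these scores in the values was not tested.

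Among the other clock genes, which include 10 repressors and 16 kinases, ligases and partners, 3 passed at least 1 SPF against GF test in the joint edgeR fit. Nr1d2 differed in its time profile after PBS (adjusted p = 0.0361) and in its treatment by time test (0.0260). Nfil3 differed in its time profile after vancomycin (0.0393), and Dbp in the vancomycin difference at ZT11 (0.0287). Of all genes, 0.12%, 0.0723%, 0.151% and 0.00602% were called in these tests, in that order. The ZT11 test was added after seeing the data.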

How the results depend on the processing

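With 1 library left out, 1750 values of the time, treatment and SPF against GF comparisons of the 4 genes stayed on their side of the threshold. Another 39 lost a call and 3 gained one. Under the other settings 537 stayed on their side, 15 lost a call and 4 gained one. No called value turned its sign, but some uncalled values did. For Arntl, vancomycin minus PBS over all times in GF was -0.10 as reported and ran to 0.04 under other settings. Keeping only GF libraries of position score above 0 leaves 3 GF groups with 1 library each, assumed to vary like the rest. Arntl was then 2.01 (PBS) and 1.69 (vancomycin), and Npas2 1.73 and 1.40. The SPF against GF profile differences were 0.73 for Clock and 1.97 for Rora. Whether these pass is not read from groups of 1 library, although the counts above include them. Npas2 in GF PBS was lost with no filter (1.60), the T and NK covariate (1.58) and the replicate block (1.57, adjusted p = 0.101). Rora in SPF PBS was lost with no filter (0.71), limma (0.68), the replicate block (0.73, adjusted p = 0.0546) and the covariates position (0.39), smooth muscle (0.045), T and NK (0.69), B cell (0.67) and Y-linked (0.67). DESeq2 called Clock in GF vancomycin (0.51) and Rora in SPF vancomycin (0.76). The shares of all genes given above are those of the edgeR fits as reported, not of these settings. The cause of these changes was not tested.

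Leaving out 1 library gave 1.45 to 2.17 for Arntl in GF vancomycin, 1.38 to 1.88 and 1.85 to 2.41 for Npas2 in GF PBS and vancomycin, 0.62 to 0.89 and 0.61 to 1.05 for Rora in SPF PBS and vancomycin, and 0.39 to 0.58 for the Clock profile. The Npas2 call in GF PBS was lost without PBS ZT5 replicate 3 or 4, ZT11 replicate 1, 2 or 4, ZT17 replicate 1, 2 or 3, ZT23 replicate 1 or 2, or vancomycin ZT5 replicate 3, ZT11 replicate 2 or 3, ZT17 replicate 3, ZT23 replicate 1, 2 or 4. The Rora call in SPF PBS was lost without PBS ZT5 replicate 1, 2 or 3, ZT11 replicate 1, 3 or 4, ZT17 replicate 1, 2 or 4, any ZT23 replicate, or vancomycin ZT5 replicate 1, ZT17 replicate 1 or 4, or ZT23 replicate 1.

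The labels do not say whether a replicate number marks a batch. Same-numbered libraries had a mean correlation of deviations of 0.04 in SPF and -0.04 in GF, against -0.01 and 0.01 for different numbers. In SPF 12 and in GF 5 of 32 libraries correlated best with their own number. Whether a batch is shared by number was not tested. With the replicate block, genes called by time after PBS went from 1507 to 1303 (SPF) and from 24 to 20 (GF). Counts of all genes called moved more under other settings, for time after PBS 312 to 2639 (SPF) and 7 to 403 (GF), and for vancomycin over all times 45 to 493 (SPF, 137 as reported) and 0 to 5 (GF). Library totals alone shifted every gene's differences by at most 0.10 (SPF) and 0.13 (GF) log2.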
